A study of Mus musculus with 6 samples.

Results

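The Fos, Jun and ATF3 genes of the transcription factor AP-1 were compared between CTLA-4 KO and wild type T cells taken from mice 4 days after immunization. Members were all probe sets that the array annotation assigns to exactly 1 of the symbols Fos, Fosb, Fosl2, Jun, Junb, Jund and Atf3, which gave 10 probe sets for 7 genes, of 45037 probe sets and 18193 genes on the array. Donor mice of both groups carried the 5C.C7 T cell receptor transgene, which recognises the moth cytochrome c (MCC) peptide, lacked RAG2 and bore the CD45.1 allele. The CTLA-4 KO donors also lacked CTLA-4, an inhibitory receptor of activated T cells, and the wild type donors had it. Cells of both groups went into B10.A recipients that were then given MCC peptide together with LPS, and they were recovered by sorting after 4 days. There were 3 arrays for CTLA-4 KO and 3 for wild type, which the labels call biological replicates without saying whether single or pooled animals were used.

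AP-1 is a family of dimers of leucine zipper proteins that bind DNA through a shared basic region. Fos proteins need a partner, usually a Jun protein, whereas Jun proteins can also pair with one another, and ATF3 pairs with Jun proteins or with itself. In T cells, receptor signals through Ras and ERK act on the serum response factor and its partners at the Fos gene, JNK and ERK signals modify the proteins, and AP-1 binds with NFAT at cytokine genes such as Il2. Fos is the textbook immediate early gene, with a transcript that appears and decays within a short time of stimulation.

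Fos was the member called higher in CTLA-4 KO cells, and a Fosl2 probe set was called lower when arrays were compared within replicate numbers. The promoters of these genes are shown because they are the members with a call, in opposite directions. Without the comparison within replicate numbers the Fosl2 probe set was not called (limma adjusted p = 0.204), and its second probe set was called in neither fit. Both promoters come from the RefSeq promoter table of GRCm38.p6, which matched all 7 members, and run from 250 bases before to 50 bases after the annotated start, 5′ to 3′. Fos lies at chr12:85473640-85473939 and Fosl2 at chr5:32136222-32136521, both on the + strand. Capitals mark TGACG, the core of the cyclic AMP response element (CRE), TATAAA, the TATA box, and GGGCGG, the GC box, each searched on both strands, so that CCGCCC is a GC box on the other strand.
Fos: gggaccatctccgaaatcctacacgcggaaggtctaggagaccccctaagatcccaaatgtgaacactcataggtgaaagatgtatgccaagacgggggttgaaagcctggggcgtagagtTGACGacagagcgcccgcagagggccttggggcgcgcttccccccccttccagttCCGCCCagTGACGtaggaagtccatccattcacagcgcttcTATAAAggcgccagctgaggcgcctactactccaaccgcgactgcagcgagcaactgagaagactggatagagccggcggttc
Fosl2: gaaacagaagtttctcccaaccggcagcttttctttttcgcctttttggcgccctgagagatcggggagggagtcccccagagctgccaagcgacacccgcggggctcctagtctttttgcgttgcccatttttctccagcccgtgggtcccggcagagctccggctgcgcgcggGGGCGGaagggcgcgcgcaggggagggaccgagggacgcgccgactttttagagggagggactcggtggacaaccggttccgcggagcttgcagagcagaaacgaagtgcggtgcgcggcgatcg
The Fos window held TGACG at 129 and 66 bases before the start, a GC box at 74 and TATAAA at 33. The Fosl2 window held a GC box at 75 bases before the start and neither TGACG nor TATAAA. Over all 32851 promoters in the table, 20.8% held TGACG, 35.7% a GC box and 13.6% TATAAA. Among the members, TGACG was in the windows of Fos, Fosb, Junb and Atf3, a GC box in those of Fos, Fosb, Fosl2, Jun and Atf3, and TATAAA in those of Fos and Junb. The Junb match to TATAAA began at the annotated start itself, with 0 bases before it, unlike the 33 in Fos. The full CRE, TGACGTCA, which contains TGACG, and the AP-1 site TGANTCA were in none of the 7 windows and in 1.79% and 7.81% of all promoters. TGACATCA, a relative of the CRE, was in the Jun window and in 3.62% of all promoters. The CArG box, the core of the serum response element, was in none of the 7 windows and in 1.63% of all promoters. The windows reach only 250 bases before the start, so a CArG box further upstream could not be found. These matches describe letters in the windows and were not tested for binding.

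The arrays passed the check of the genotype labels. Ctla4 had intensities of 812, 791 and 784 in CTLA-4 KO cells, against 5332, 4787 and 4587 in wild type cells, and the mean in CTLA-4 KO was 16.2% of that in wild type. Intensities are MAS5 values on a linear scale, with the same trimmed mean of 500.003 on every array. Xist was bright on both arrays numbered 2 (12599 in CTLA-4 KO and 14608 in wild type) and was 106.7 or less elsewhere. The ratio of 5′ to 3′ Actb signal, a sign of RNA integrity, was 0.567, 0.691 and 0.544 in CTLA-4 KO replicates 1, 2 and 3, against 0.418, 0.41 and 0.584 in wild type. Markers of CD4 T cells were bright, with a summed intensity over 9 genes of 70024 to 70340 in CTLA-4 KO and 69502 to 78615 in wild type. Over 8 B cell genes the sum was 139 to 329 in CTLA-4 KO and 259 to 478 in wild type, with 6 of them under the floor for dim signals described next. Over 12 myeloid genes it was 453 to 730.1 in CTLA-4 KO and 592 to 629.9 in wild type, with 6 under the floor, and no marker was listed at 0. Sums for 6 NK cell genes were 429 to 477 in CTLA-4 KO and 188 to 523 in wild type, those for 2 CD8 genes 315 to 513 in CTLA-4 KO and 262 to 422 in wild type, and those for 5 erythroid and platelet genes 169 to 184 in CTLA-4 KO and 129 to 245 in wild type. limma called no gene of these 6 marker lists, where 1.69% of all tested genes were called. Of the marker genes 3 had an unadjusted p under 0.05 (2 of the CD4 T cell list and 1 of the myeloid list). So did 4216 of all 27022 tested probe sets. With the replicate block, in which same-numbered arrays are compared, 2 of the CD4 T cell genes fell without overlap. Over all tested genes 3.44% were called lower with the block. Cd28, a costimulatory receptor, averaged 9472 in CTLA-4 KO and 11964 in wild type (log2 difference −0.34, limma adjusted p = 0.0731, or 0.0299 with the block). Cd3g, a chain of the T cell receptor complex, averaged 6260.5 in CTLA-4 KO and 8020.7 in wild type (log2 difference −0.35, limma adjusted p = 0.122, or 0.029 with the block).

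Of the 10 member probe sets, 6 passed a floor on mean signal of about 35.4 in intensity and were tested, and they read Fos, Fosb, Fosl2, Junb and Jund. Both Jun probe sets, the Atf3 probe set and the second Jund probe set were under the floor. Fosb was just above it, with a mean of 42.9 over the 6 arrays, and the second Jund probe set just below, with 33.9. Tests were run with limma on log2(intensity + 16), with Benjamini-Hochberg adjustment over all 27022 tested probe sets, and a probe set was called at an adjusted p of 0.05. By this test 1 of the 6 was called, Fos, which was higher, where 1.25% of all tested probe sets were called (0.785% higher and 0.47% lower). No member was called lower, and 1 had an unadjusted p under 0.05 in that direction. Over all 27022 tested probe sets, 4216 had an unadjusted p under 0.05 in either direction. With the replicate block 1 was called higher and 1 lower, where 8.66% of all probe sets were called (3.86% higher and 4.8% lower). The genotypes did not overlap in 2 of the 6, Fos and Fosl2, against 21% of all tested probe sets (9.46% with CTLA-4 KO higher and 11.5% lower), and 3 of the 6 differed in the same direction in all 3 pairs, against 44.5%.

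**Figure D1:**
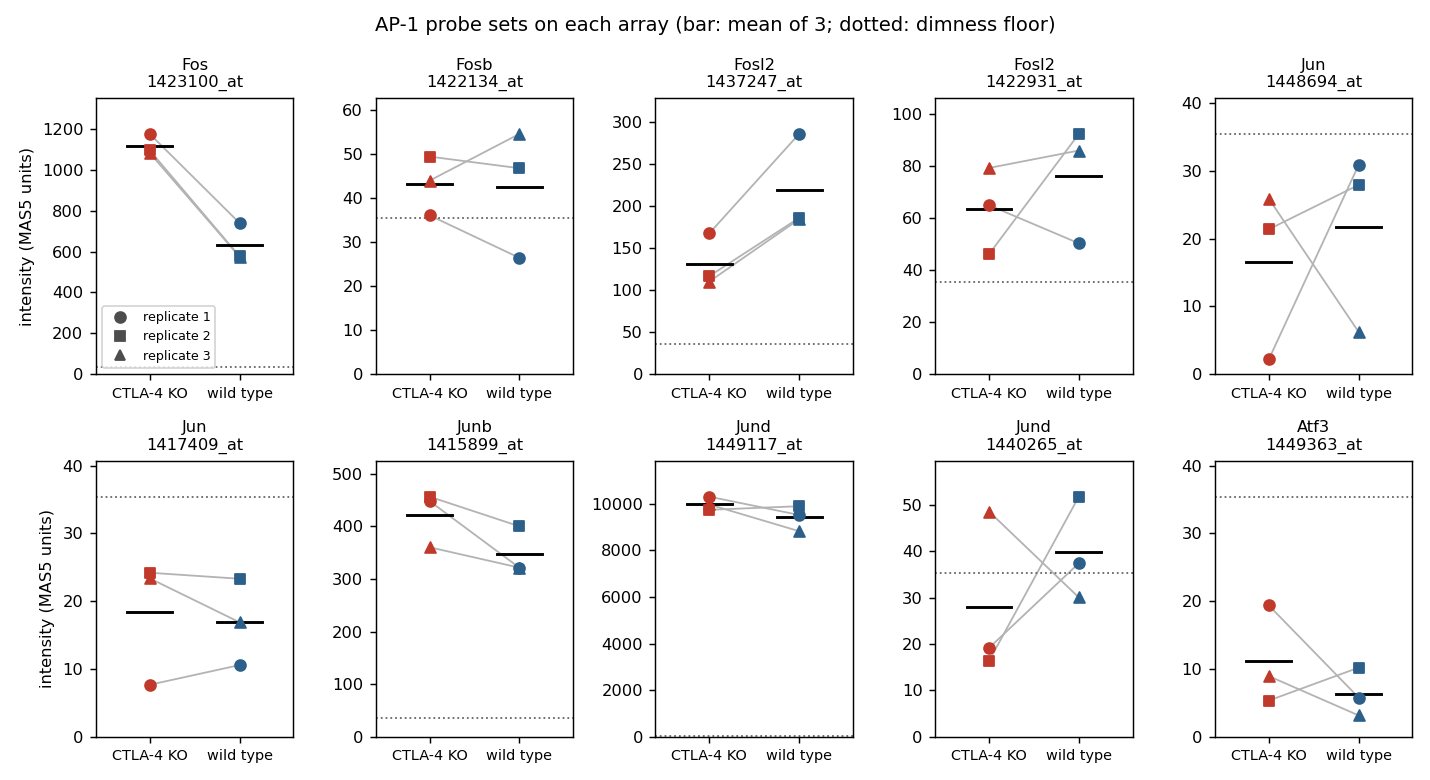
Intensity (linear MAS5 units, axes from 0) of the 10 AP-1 probe sets on each array, with CTLA-4 KO left of wild type, 1 marker shape per replicate number, grey lines joining arrays of the same number, bars at the mean of 3 and a dotted line at the floor of 35.4. The 3 CTLA-4 KO values of Fos lie above all wild type values, those of the brighter Fosl2 probe set lie below, and the other 8 probe sets overlap.

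Fos encodes the founding member of the family, the partner of Jun proteins. Its probe set had intensities of 1175, 1094 and 1082 in CTLA-4 KO replicates 1, 2 and 3, against 739, 576 and 574 in wild type. All CTLA-4 KO arrays were above all wild type arrays, and the lowest CTLA-4 KO array exceeded the highest wild type array by more than the spread inside either genotype. The means were 1117 ± 50.6 in CTLA-4 KO and 629.6 ± 94.7 in wild type (SD, n = 3 arrays each). The log2 difference was 0.82 ± 0.14 (SE), a fold of 1.77, with a 95% interval of 0.52 to 1.12 and a limma adjusted p of 0.0215. With the replicate block the limma adjusted p was 0.00095. Within pairs 1, 2 and 3 the fold was 1.58, 1.87 and 1.86. The Actb ratio was higher in CTLA-4 KO than in wild type in pairs 1 and 2 and lower in pair 3. Whether RNA integrity contributes to the Fos difference was not tested. In bulk samples, more cells with Fos RNA and more Fos RNA per cell cannot be told apart.

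The size of the Fos difference changed little when an array was left out (log2 difference 0.76 to 0.94), but the call was lost in 5 of these 6 fits. Leaving out CTLA-4 KO replicate 1, 2 or 3 gave a limma adjusted p of 0.0583, 0.111 or 0.0611, and leaving out wild type replicate 1, 2 or 3 gave 0.0177, 0.0654 or 0.0768. Adding the Actb ratio to the model gave a log2 difference of 0.91 with a limma adjusted p of 0.184. Adding the 5′ to 3′ ratio of Gapdh instead gave 0.85 with a limma adjusted p of 0.0235. The limma adjusted p was 0.128 without the intensity trend, and 0.24 with replicates 1 and 3 only, which leaves out the arrays with bright Xist.

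Fosl2 encodes FRA-2, a Fos relative that lacks the strong activating region of Fos. Its brighter probe set had 167, 116 and 109.97 in CTLA-4 KO replicates 1, 2 and 3, against 285, 186 and 184 in wild type. Replicate 1 was the highest array within each genotype, and every wild type array was above every CTLA-4 KO array. The means were 131 ± 31.4 in CTLA-4 KO and 218 ± 58 in wild type (SD, n = 3 arrays each), so the CTLA-4 KO mean was 60.1% of that in wild type. On the log2 scale the difference was −0.66 ± 0.23 (SE), with a 95% interval of −1.18 to −0.15 and a limma adjusted p of 0.204, which misses the threshold. Within pairs 1, 2 and 3 it was −0.72, −0.61 and −0.67, and with the replicate block this probe set fell at a limma adjusted p of 0.0354. The second Fosl2 probe set was dimmer, with 64.9, 46.1 and 79.3 in CTLA-4 KO, against 50.3, 92.3 and 86 in wild type. These values overlapped, the pairs differed in direction, and the log2 difference was −0.20 with a 95% interval of −0.82 to 0.42 (adjusted p from limma 0.773, and 0.701 with the block). The probe sets of Fosl2 thus disagreed on whether the genotypes separate.

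Fosb encodes a further Fos protein, known like Fos as an immediate early gene. It was near the floor on every array, with 36.1, 49.5 and 44 in CTLA-4 KO, against 26.4, 46.8 and 54.6 in wild type. The genotypes overlapped, and the log2 difference was 0.04 with a 95% interval of −0.60 to 0.68 (limma adjusted p = 0.963). This interval overlaps the Fos interval of 0.52 to 1.12. The sign of the Fosb difference turned in 4 alternative fits.

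Junb and Jund encode Jun proteins, of which Jund is known for a steady level in resting cells. Junb had 448, 457 and 361 in CTLA-4 KO, against 322, 400.4 and 322 in wild type. The value was higher in CTLA-4 KO in each pair, but the lowest CTLA-4 KO array was under the highest wild type array. Means were 422 ± 53.3 in CTLA-4 KO and 348 ± 45.4 in wild type (SD, n = 3 arrays each), and the log2 difference was 0.27 with a 95% interval of −0.09 to 0.63 (limma adjusted p = 0.476, and 0.264 with the block). The brighter Jund probe set had 10306, 9740.4 and 9969.7 in CTLA-4 KO, against 9520.3, 9896 and 8824 in wild type. Its 6 arrays lay within a log2 range of 0.22, and the genotypes overlapped. The log2 difference was 0.09 with a 95% interval of −0.10 to 0.27 (limma adjusted p = 0.656, and 0.582 with the block), and the top of this interval is below the bottom of the one for Fos.

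The remaining 4 probe sets were under the floor, were not tested and overlapped between genotypes. Jun, the partner of Fos in classical AP-1, had 2.16 to 25.9 in CTLA-4 KO and 6.23 to 30.8 in wild type on its brighter probe set, and 7.68 to 24.2 in CTLA-4 KO and 10.6 to 23.3 in wild type on the other. Atf3, a stress-induced factor, had 19.4, 5.35 and 8.96 in CTLA-4 KO, against 5.8, 10.2 and 3.16 in wild type. The second Jund probe set had 16.4 to 48.6 in CTLA-4 KO and 30.1 to 51.8 in wild type. Values this dim give no order between genotypes for Jun or Atf3 and do not show that the genes were off.

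**Figure D2:**
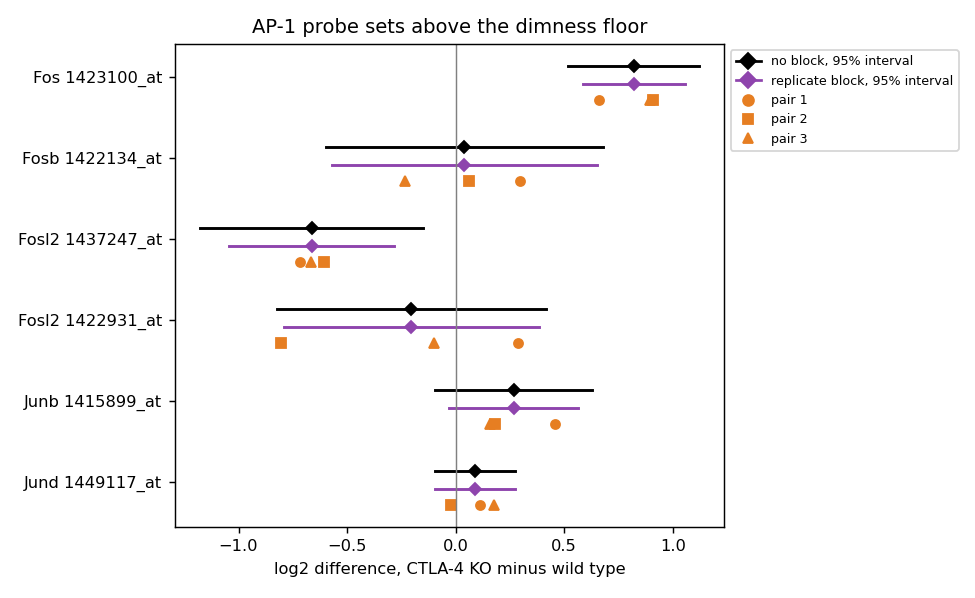
Log2 difference, CTLA-4 KO minus wild type, for the 6 tested AP-1 probe sets, with limma 95% intervals without a block (black) and with the replicate block (purple) and the difference in each pair (orange). The Fos intervals lie above 0 and those of the brighter Fosl2 probe set below it, with pair values of 0.66 to 0.91 and −0.72 to −0.61, while the other intervals cross 0.

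Fos was next set against the other tested probe sets within each array, as a difference of log2(intensity + 16) in which the scaling of the array largely cancels. These ratios were chosen after the values were seen, and all share Fos, so they are no separate support for its difference. Against the brighter Fosl2 probe set, this ratio was 1.22, 1.59 and 1.64 above the wild type mean in CTLA-4 KO replicates 1, 2 and 3, and the wild type arrays lay between −0.15 and 0.08. The change was a fold of 2.80. The genotypes could not overlap in this ratio, because neither probe set overlapped and the 2 differed in opposite directions. Its exact p below was therefore fixed in advance. Against Jund the ratio was 0.76, 0.74 and 0.69 above the wild type mean in CTLA-4 KO, and −0.19 to 0.22 in wild type, a fold of 1.66. Against Junb the fold was 1.47, and against the dimmer Fosl2 probe set 2.03. A two-sided exact permutation test gave p = 0.1 for each of these 4 ratios, the smallest that 3 arrays against 3 allow, and p = 0.2 for the ratio to Fosb (adjusted over the 5 ratios, p = 0.125 and 0.2).

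Same-numbered arrays shifted together in the table as a whole, and the test of replicate number asked whether they did so in the members. limma called 0 of the 6 tested probe sets, where 2.37% of all tested probe sets were called, and 1 of the 6 had an unadjusted p under 0.05. It was the brighter Fosl2 probe set (unadjusted p = 0.0379, limma adjusted p = 0.243), whose replicate 1 was the highest array in each genotype.

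Other leucine zipper genes that pair with AP-1 proteins or bind related sites were read from 23 tested genes, of which 1 rose and 1 fell, where 1.69% of all 11990 tested genes were called (1.19% higher and 0.5% lower). Batf, which pairs with Jun proteins and IRF4 in T cells, rose to a mean of 2034 ± 82.1 in CTLA-4 KO, against 1297 ± 178 in wild type (SD, n = 3 arrays each, as for the means that follow; log2 difference 0.65, limma adjusted p = 0.0347). Bach2, a repressor known in mouse T cells to compete at AP-1 sites, fell to 1345 ± 210.3 in CTLA-4 KO, against 3069.9 ± 655 in wild type (log2 difference −1.17, limma adjusted p = 0.0112). A second Bach2 probe set fell by 1.43 on the log2 scale (limma adjusted p = 0.000295), and the third had a log2 difference of −0.56 (limma adjusted p = 0.2). Mafg, a small Maf protein without an activating region, had 712 ± 76.8 in CTLA-4 KO and 408 ± 87.3 in wild type (log2 difference 0.80, limma adjusted p = 0.0535, or 0.00217 with the block). Jdp2, a repressor that pairs with Jun, had 461 ± 165 in CTLA-4 KO and 214 ± 46.2 in wild type (log2 difference 1.02, limma adjusted p = 0.0767, or 0.00625 with the block). With the block 4 rose and 2 fell, where 8.92% of all tested genes were called (5.48% higher and 3.44% lower). Of the 23, 17 had positive differences and the median was 0.18, against 0.0018 over all tested genes. The Batf call held without wild type replicate 3 (limma adjusted p = 0.0355) and was lost without any other array (up to 0.167), and the Bach2 call was lost without CTLA-4 KO replicate 2 (0.0606).

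Kinases that carry signals to AP-1 were read from 17 tested genes, of which 1 rose, where 1.69% of all tested genes were called. Map2k3, an activating kinase of p38, rose to 2128 ± 199 in CTLA-4 KO, against 1396 ± 123 in wild type (log2 difference 0.60, limma adjusted p = 0.0402), and it was called in none of the 6 fits that left out an array (0.0535 to 0.189). Its second probe set had a log2 difference of 0.23. Rps6ka3, a kinase below ERK, averaged 1687 in CTLA-4 KO and 2174 in wild type (log2 difference −0.36, limma adjusted p = 0.131, or 0.0371 with the block). Dimmer Rps6ka3 probe sets had log2 differences of −0.23 and −0.29 with overlap and were not called with the block. Map2k2, an activator of ERK, averaged 2215 in CTLA-4 KO and 1685 in wild type (log2 difference 0.40, limma adjusted p = 0.232, or 0.0339 with the block). A dimmer Map2k2 probe set had a log2 difference of 0.07 with overlap and was not called with the block. Map3k5, a stress-activated kinase of the top tier, averaged 3299 in CTLA-4 KO and 4082 in wild type (log2 difference −0.30, limma adjusted p = 0.218, or 0.0678 with the block). The median of the list was −0.05. With the block 2 kinase genes rose and 1 fell, where 8.92% of all tested genes were called.

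Of 11 tested genes for the serum response factor, its partners and coactivators, limma called none on the brightest probe set, with or without block. Over all tested genes 1.69% were called, or 8.92% with the block. In this list 1 gene had an unadjusted p under 0.05, as did 4216 of all 27022 tested probe sets. Srf, the factor that binds the serum response element, had 2518 ± 223 in CTLA-4 KO and 2085 ± 113 in wild type, without overlap (log2 difference 0.27, limma adjusted p = 0.263). The coactivator Crebbp had a log2 difference of −0.16 (limma adjusted p = 0.475) and Elk4, a partner of the serum response factor, of −0.10 (0.605), both with overlap between genotypes. Another Crebbp probe set had a log2 difference of −0.38 without overlap (limma adjusted p = 0.127) and fell with the block (0.0287). Mef2a, another MADS box factor, had a log2 difference of −0.18 on its brightest probe set (limma adjusted p = 0.525). Dimmer Mef2a probe sets had differences of −0.39 with overlap and of −0.45 and −0.45 without overlap (limma adjusted p = 0.356, 0.201 and 0.258), and the brighter of those without overlap fell with the block (0.0401). The list median was −0.04.

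Immediate early genes other than AP-1 moved in both directions. Of 32 tested, 2 rose and 1 fell, where 1.69% of all tested genes were called. The list median was 0.01. Gadd45b, which acts on stress kinase signalling, had 1366 ± 130.2 in CTLA-4 KO and 447 ± 78.1 in wild type (log2 difference 1.59, limma adjusted p = 0.00193). Pim1, a survival kinase, rose to 1101 ± 109.6 in CTLA-4 KO, against 495 ± 75.5 in wild type (log2 difference 1.13, limma adjusted p = 0.00906). Id2, an inhibitor of E proteins, fell to 2762 ± 418 in CTLA-4 KO, against 5822 ± 1326 in wild type (log2 difference −1.06, limma adjusted p = 0.0193), a call lost without CTLA-4 KO replicate 3 or wild type replicate 2 or 3 (up to 0.0817). Dusp6, a phosphatase of ERK, averaged 713 in CTLA-4 KO and 1142 in wild type (log2 difference −0.67, limma adjusted p = 0.055, or 0.00277 with the block). With the block 7 rose and 2 fell, where 8.92% of all tested genes were called (5.48% higher and 3.44% lower). Egr1, Ier2 and Nr4a1 are named outside the rule, after their values were seen, because they are classical companions of Fos. Egr1 had 14236 ± 1340.1 in CTLA-4 KO and 14092 ± 1957 in wild type (log2 difference 0.02, limma adjusted p = 0.953), and Ier2 had 3747 ± 559 in CTLA-4 KO and 3582 ± 403 in wild type (log2 difference 0.06, limma adjusted p = 0.869), with signs that turned in some alternative fits. Nr4a1 had 3366 ± 221 in CTLA-4 KO and 2411 ± 529 in wild type (log2 difference 0.50, limma adjusted p = 0.131, or 0.0104 with the block). Its relatives in the list were not called. Nr4a2 had a log2 difference of −0.48 (limma adjusted p = 0.602, or 0.149 with the block) and Nr4a3 of 0.07 (0.827, or 0.679).

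Heat shock and dissociation stress genes were listed because handling and sorting of cells are known to raise Fos and Jun RNA together with them. Of 15 tested, limma called 1, where 1.69% of all tested genes were called. It was Hspd1, a mitochondrial chaperone, with 4923 ± 165 in CTLA-4 KO and 3617 ± 53.5 in wild type (log2 difference 0.44, limma adjusted p = 0.0402). It was called in none of the 6 fits that left out an array (limma adjusted p of 0.0784 to 0.183). Hsph1, a cytosolic cochaperone, averaged 4414 in CTLA-4 KO and 3293 in wild type (log2 difference 0.43, limma adjusted p = 0.119, or 0.0136 with the block). The chaperone Hsp90aa1 averaged 13826 in CTLA-4 KO and 12230.4 in wild type (log2 difference 0.18, limma adjusted p = 0.352). The metal-binding Mt1 averaged 58.3 in CTLA-4 KO and 37 in wild type, near the floor (log2 difference 0.49, limma adjusted p = 0.366). The summed intensity over 16 genes was 78120.5 to 86369 in CTLA-4 KO and 73050.1 to 78147 in wild type, and the list median was 0.15. The part of this list in the Fos difference was not tested.

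**Figure D3:**
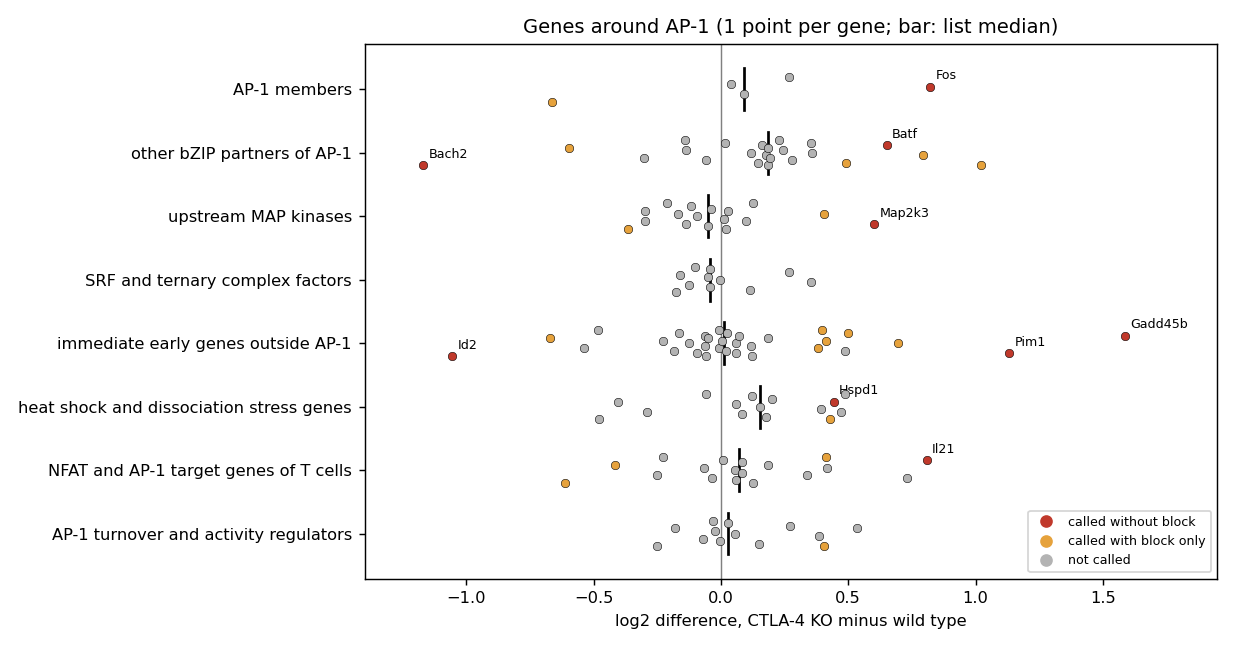
Log2 difference, CTLA-4 KO minus wild type, for the tested genes of each list around AP-1, 1 point per gene, with list medians as bars, genes called without a block in red and genes called only with the replicate block in orange. Red points are few or absent in each list, with none among the serum response factor partners and the turnover regulators. They lie on both sides of 0 among the leucine zipper and the immediate early genes.

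Genes known as targets of NFAT and AP-1 in T cells were read from 18 tested genes. Of these 1 rose, where 1.69% of all tested genes were called. The gene was Il21, a cytokine of follicular helper cells. It had 3868 ± 94.2 in CTLA-4 KO and 2223 ± 378 in wild type (log2 difference 0.81, limma adjusted p = 0.0154). The call was lost without CTLA-4 KO replicate 2 or wild type replicate 2 or 3 (limma adjusted p up to 0.0917), and a dimmer Il21 probe set had a log2 difference of 0.83 (limma adjusted p = 0.1). Il2, the cytokine whose promoter is the textbook site of joint NFAT and AP-1 binding, had 219 ± 27.7 in CTLA-4 KO and 347 ± 73.7 in wild type, without overlap and in the other direction (log2 difference −0.61, limma adjusted p = 0.151, or 0.0319 with the block). Tnfrsf9, the costimulatory receptor 4-1BB, averaged 962 in CTLA-4 KO and 1296 in wild type (log2 difference −0.42, limma adjusted p = 0.194, or 0.0224 with the block). A dimmer tested Tnfrsf9 probe set had a log2 difference of −0.13 with overlap and was not called with the block. Vim, an intermediate filament protein, averaged 16575 in CTLA-4 KO and 12489 in wild type (log2 difference 0.41, limma adjusted p = 0.0676, or 0.0142 with the block). Other probe sets of Vim rose, with log2 differences of 0.72 and 0.57 (limma adjusted p = 0.0183 and 0.0347). With the block 2 rose and 2 fell, where 8.92% of all tested genes were called, and the list median was 0.07. Among 13 tested regulators of AP-1 turnover and activity, limma called none, where 1.69% of all tested genes were called. Of these regulators 2 had an unadjusted p under 0.05, as did 4216 of all 27022 tested probe sets. The list median was 0.03. Psmd4 of the proteasome averaged 3618 in CTLA-4 KO and 2746 in wild type (log2 difference 0.40, limma adjusted p = 0.143), and it was the 1 gene of this list called with the block (0.0325), on its brightest probe set and not on the dimmer ones. Itch, a ubiquitin ligase that targets Junb in mouse T cells, averaged 1317 in CTLA-4 KO and 1563 in wild type (log2 difference −0.25, limma adjusted p = 0.356). Dimmer Itch probe sets had log2 differences of −0.31, 0.20 and −0.10 and were not called. Cops5 had a log2 difference of 0.27 (limma adjusted p = 0.348) and Zfp36l2 of −0.18 (0.32). A dimmer Cops5 probe set had the other sign, with a log2 difference of −0.37 and overlap (limma adjusted p = 0.605).

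By the rule fixed for likeness, the member with the widest log2 range over the 6 arrays was taken, which was Jun, whose values were under the floor. The profiles most like it were those of Slc6a17, Ccdc186, Gm16845, Scgn and Bmp8a, at root mean square log2 differences of 0.15 to 0.21 over 6 arrays, against a Jun range of 1.37. Profiles for Fos and Fosl2 were looked up as well, after their values were seen. Those most like Fos belonged to Ahr, the aryl hydrocarbon receptor, Psrc1, Il21, Mafg and Yars2, at 0.05 to 0.074, against a Fos range of 1.01. Ahr had 1382, 1340.1 and 1222 in CTLA-4 KO, against 849, 639.996 and 695 in wild type. Wild type array 1 was the highest of its genotype, as in the Fos profile that Ahr was chosen to match. Profiles most like Fosl2 belonged to Gdap10, Smoc1, Usp53, Hk3 and Carmil1, at 0.07 to 0.11, against a Fosl2 range of 1.26. For these 5 genes replicate 1 was the highest array within each genotype, as in the Fosl2 profile they were chosen to match.

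**Figure D4:**
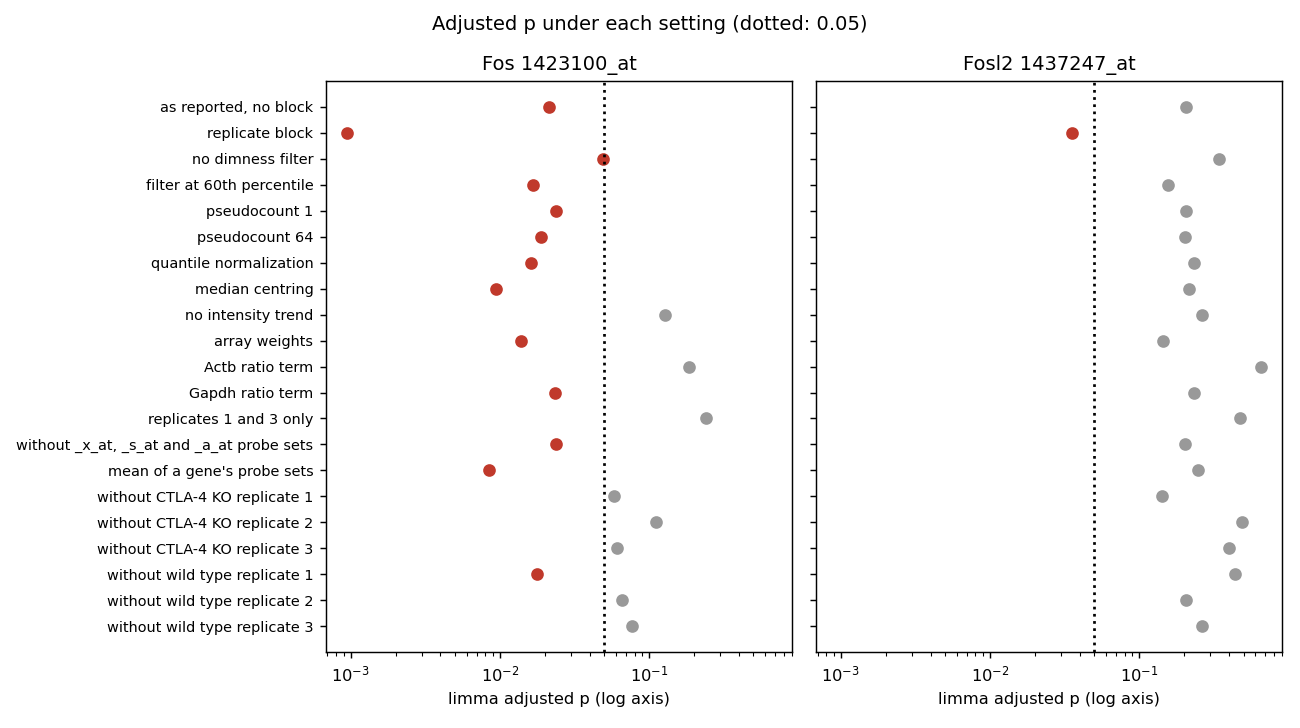
limma adjusted p (log axis) of Fos and of the brighter Fosl2 probe set under the reported fit and 20 alternatives, with a dotted line at 0.05 and values under it in red. Fos was under 0.05 in 12 of 20 alternatives and Fosl2 reached it in 1, the replicate block.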

How the data were processed

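RNA from Trizol extracts (2 µg) was turned into biotinylated target and hybridised to Affymetrix arrays, as the labels' protocols state. The table the authors deposited holds a linear intensity for each of 45101 probe sets on 6 arrays. Partek and MAS5 are named in the submitters' processing notes without versions. MAS5 values of dim probe sets are noisy, which limits Jun and Atf3.

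Groups came from sample titles. p-values measure the spread between these arrays, part of which may be technical, and 3 arrays a group limit the precision. Arrays numbered 1, 2 and 3 deviated from their group means together across probe sets (r = 0.371, 0.24 and 0.254, each over 0.1), so the numbers in the titles were taken as pairs.

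Without the 64 controls, the filter on dim signals asked for a mean log2(intensity + 16) at or above the 40th percentile and left 27022 probe sets. The model for each came from limma 3.58.1 under R 4.3.3 (eBayes, trend on intensity), leaving 4 residual degrees of freedom, or 2 with the block. The log2 scale understates differences of dim genes. The fit was tested on simulated data. Gene names came from the array annotation (1 gene for 34958 probe sets, several for 932, none for 9211), updated through RefSeq for 34754. A gene in a list was read by its brightest probe set.

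The genes named were the members, Ctla4 and, from each of 7 lists around AP-1, up to 4 genes with the smallest p. Probe set means, normalization, filters, weights, RNA quality terms and left-out arrays were varied. Members, lists and alternatives were chosen with earlier results of these data known. The likeness lookup for Fos and Fosl2 and the left-out arrays in the test of replicate number were added later.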

Additional observations from a re-analysis of the deposited data

How the results depend on the processing

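Over 20 alternatives, Fos kept its direction (log2 difference 0.76 to 0.94) and its call in 12, and the calls of Junb and Jund did not change. The count of members called higher was 0 in place of 1 without the intensity trend, with the Actb term and with replicates 1 and 3 only, and 0 to 1 when an array was left out. Members called lower numbered 1 with the replicate block and 0 elsewhere. The replicate block changed no other member's call.

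Over all probe sets, 212 were called higher and 127 lower. These counts were 1044 and 1297 with the replicate block, 68 and 43 with no dimness filter, 13 and 7 without the intensity trend, 9 and 13 with the Actb term, and 25 and 21 with replicates 1 and 3 only. Lower calls numbered 196 with the filter at the 60th percentile and 200.0 with array weights. Higher calls numbered 338 under median centring (with 122 lower), 321 with array weights and 125 without probe sets of the suffixes _x_at, _s_at and _a_at. Left-out arrays gave 33 to 150.0 higher and 29 to 99 lower. The cause was not tested, except that fewer arrays or probe sets entered some of these fits. The test of replicate number called 640.0 probe sets, 30 with no filter, 12 without the trend and 502 to 1496 with an array left out (added after seeing the data), with 0 members in each.

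Signs that turned belonged to differences not called: Fosb (−0.25 with the Actb and −0.035 with the Gapdh term, and −0.18 to 0.19 with an array left out), the dimmer Fosl2 probe set (0.095 with replicates 1 and 3 only), Cops5 (−0.048 with probe sets averaged), Egr1 (−0.048 after quantile normalization, and −0.0997 to 0.0922 with an array left out) and Ier2 (−0.013 to 0.189 with an array left out). Bach2, Batf, Map2k3, Pim1, Id2, Hspd1 and Il21 kept their directions but lost their calls with the Actb term, without the trend and with replicates 1 and 3 only, while Ctla4 and Gadd45b kept theirs. Of the 5 genes most like Fosl2, 1 was shared at a pseudocount of 64. Both Jun probe sets and Atf3 were too dim for any comparison.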
